A study of Mus musculus with 6 samples.

Results

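The IgLON, Ncam and Cadm adhesion genes were taken as Lsamp, Ntm, Opcml and Negr1 (4 IgLON genes), Ncam1 and Ncam2 (2 Ncam genes) and Cadm1, Cadm2 and Cadm3 (3 Cadm genes). A cluster of crosslinked RNA tags belonged to a gene when both shared 1 nt or more and a strand, the gene being taken as its annotated span. By this rule the 9 genes held 209 of the 9988 NOVA1 clusters (2.09%) and 879 of the 36591 NOVA2 clusters (2.40%). The tissue was cortex of wild-type CD1 mice at embryonic day 18.5, and all 6 libraries came from this one condition. HITS-CLIP, in which ultraviolet light links a protein to the RNA it touches and an antibody recovers both, was done in 3 libraries with an antibody to NOVA1 and in 3 with an antibody to NOVA2. The study asked where these closely related neuronal splicing factors bind alike and where they differ. The deposited lists pool the 3 libraries of a protein, so no value per library was available and replicate error could not be assessed for any difference below.

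The members are cell surface proteins with immunoglobulin domains that hold neurons to one another and to their surroundings. IgLON proteins are tied to the outer membrane by a lipid anchor, NCAM proteins can carry polysialic acid chains that weaken adhesion, and CADM proteins (also named SynCAM) span the cleft of the synapse. Most of these genes have very long introns, and NOVA proteins bind RNA at YCAY, where Y is a pyrimidine.

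The stretches below are the richest in YCAY in the intron cluster with the most NOVA2 tags of each gene, and they show what lay under the highest intron peaks. Each is the RNA strand, 5′ to 3′, written as genome letters of build mm9, with YCAY in capitals (TCAT or CCAT, and with a final C also TCAC or CCAC, overlaps allowed).
Lsamp, intron 1 (chr16:41614683-41614742, plus strand): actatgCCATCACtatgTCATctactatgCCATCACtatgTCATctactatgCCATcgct
Ntm, intron 3 (chr9:29309749-29309808, minus strand): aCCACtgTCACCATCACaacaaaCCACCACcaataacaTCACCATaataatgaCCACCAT
Opcml, intron 2 (chr9:27703004-27703063, plus strand): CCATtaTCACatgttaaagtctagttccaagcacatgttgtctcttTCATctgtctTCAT
Negr1, intron 2 (chr3:156555088-156555147, plus strand): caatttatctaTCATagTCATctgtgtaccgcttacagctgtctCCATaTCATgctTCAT
Ncam1, intron 1 (chr9:49525934-49525993, minus strand): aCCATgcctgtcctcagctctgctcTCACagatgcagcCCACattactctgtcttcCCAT
Ncam2, intron 1 (chr16:81211751-81211810, plus strand): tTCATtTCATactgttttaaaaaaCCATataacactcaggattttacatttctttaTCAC
Cadm1, over an exon skipped in some transcripts (chr9:47626839-47626898, plus strand): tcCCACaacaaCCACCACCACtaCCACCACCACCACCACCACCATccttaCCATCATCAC
Cadm2, intron 1 (chr16:67525827-67525886, minus strand): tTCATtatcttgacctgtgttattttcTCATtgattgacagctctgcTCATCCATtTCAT
Cadm3, intron 1 (chr1:175285266-175285325, minus strand): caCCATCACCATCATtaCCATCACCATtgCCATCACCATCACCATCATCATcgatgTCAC

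The 60 nt held 4 to 15 YCAY, fewest in Opcml, Ncam1 and Ncam2 and most in Cadm3, where nearly every letter fell in a motif. The Lsamp stretch was a short tandem repeat, and those of Ntm, Cadm1 and Cadm3 were built of CCA and TCA units. Over the whole cluster the Ntm intron peak held 40 YCAY in 444 nt and the Cadm3 peak 37 in 326 nt. For each of these 9 peaks, a search of the rest of the genome found no further copy (90% identity or more, across 50% or more of the cluster).

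In the 3′ UTRs the highest NOVA1 clusters were those of Opcml, Cadm2 and Lsamp, and the 30 nt richest in YCAY in each are shown with the motif again in capitals.
Opcml, 3′ UTR (chr9:28728410-28728439, plus strand): atgtaaaaaatttCCATctTCACtggCCAT
Cadm2, 3′ UTR (chr16:66663251-66663280, minus strand): caaTCATctttcagaaaTCATtccaaCCAT
Lsamp, 3′ UTR (chr16:42174696-42174725, plus strand): ccccCCACactttatccttcctTCATCCAT

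Each of the 9 genes held clusters of both proteins. Among the IgLON genes, Lsamp (limbic system-associated membrane protein) held 37 NOVA1 and 138 NOVA2 clusters, with 1195 and 5512 tags in sum. Ntm, which encodes neurotrimin, held 26 and 115 clusters with 484 and 4523 tags. Opcml, which encodes an opioid-binding adhesion protein, held 25 and 193 clusters with 857 and 8028 tags. Negr1, a regulator of neurite growth, held 22 and 90 clusters with 511 and 3024 tags. The IgLON genes thus had similar numbers of NOVA1 clusters, from 22 to 37, while Opcml had more NOVA2 clusters than the other 3. Ncam1, the main carrier of polysialic acid, held 26 and 67 clusters with 941 and 2610 tags. Ncam2, known for its part in olfactory axons, held 7 and 54 clusters with 172 and 1756 tags. The Ncam genes differed more in the NOVA1 list than in the NOVA2 list. Of their NOVA1 clusters, 10 and 7 lay in introns, and clusters past the annotated 3′ end of Ncam2 were not counted. Cadm1 (SynCAM1) held 12 and 40 clusters with 228 and 1366 tags, Cadm2 held 46 and 174 with 1406 and 7848 tags, and Cadm3 held 8 and 8 with 157 and 322 tags. Cadm3, at 33.4 kb by far the shortest member, was the one gene with as many NOVA1 as NOVA2 clusters.

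**Figure D1:**
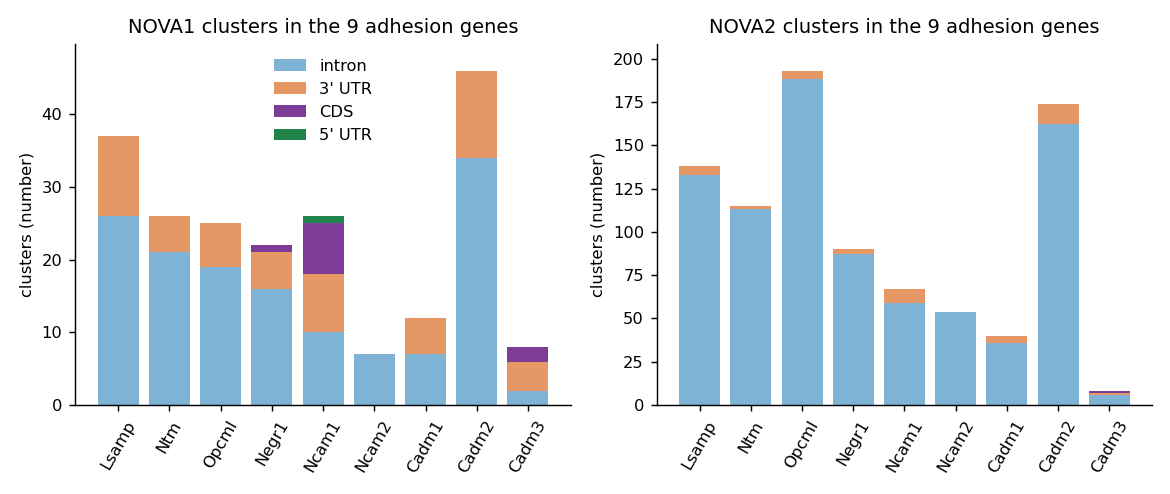
Number of NOVA1 clusters (left) and NOVA2 clusters (right) in each of the 9 genes, stacked by annotation class; the vertical axes differ. Intron clusters made up nearly all NOVA2 clusters, whereas 67 of the 209 NOVA1 clusters lay in exons, with coding sequence clusters in Ncam1, Cadm3 and Negr1.

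The 9 genes held 4.21 NOVA2 clusters for each NOVA1 cluster, against 3.66 in the whole lists. The ratio by gene was lowest in Cadm3, with equal numbers, and ran from 2.58 in Ncam1 to 7.71 in Ncam2 and 7.72 in Opcml. It depended on the class of the clusters. In introns the ratio was 5.90 for the 9 genes together and 6.79 in the whole lists, and it lay between 3 in Cadm3 and 9.89 in Opcml. In 3′ UTRs it was 0.714 for the 9 genes and 1.17 in the whole lists, and no member gene had more NOVA2 than NOVA1 clusters there. The lists keep clusters from 10 tags upward whatever the depth of the libraries, and depth and affinity cannot be told apart in these ratios. Exactly 10 tags were held by 28 NOVA1 and 89 NOVA2 member clusters. The part of RNA level in the number of clusters was not tested, and fewer expressing cells cannot be told apart from less RNA per cell.

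Per length, the members were among the genes with many clusters. Ncam1 held 22.6 NOVA2 clusters per 100 kb, Lsamp 21.3, Cadm2 18.0 and Opcml 17.0. The other genes of at least 100 kb were lower, with 12.7 in Ncam2, 12.2 in Cadm1 and 11.9 in both Ntm and Negr1. Among 2401 protein-coding genes of at least 100 kb, these 8 ranked between 16 (Ncam1) and 129 (Ntm) by NOVA2 density. Of those genes 802 held no NOVA2 cluster, and the rest had a median of 3.25 per 100 kb. NOVA1 density ran from 1.65 per 100 kb in Ncam2, rank 359, to 8.76 in Ncam1, rank 9. Cadm3 held 23.9 per 100 kb in either list and was too short to be ranked. Across the 9 genes, the number of NOVA2 clusters followed the length of the span with a Spearman correlation of 0.87 and that of NOVA1 clusters with 0.45, as a description of 9 genes that share the same libraries.

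Most NOVA1 clusters of the members coincided with a NOVA2 cluster. Of the 209, 177 overlapped one (84.7%, Wilson 95% interval 79.2 to 88.9), near the 80.1% of the whole NOVA1 list. Of the 879 NOVA2 clusters, 178 overlapped a NOVA1 cluster (20.3%, 17.7 to 23.0), where the whole NOVA2 list had 22.1%. With these lists the overlap was close to the background in both directions. It moved with the threshold, and with the NOVA2 list shortened to the 9988 clusters of most tags it was 67.9% of NOVA1 (54.6% in the whole list) and 48.1% of NOVA2 member clusters (52.0% in the whole list). With the full lists it was nearly complete in Cadm2 (45 of 46 NOVA1 clusters), Opcml (24 of 25), Ntm (24 of 26), Cadm1 (11 of 12) and Ncam2 (7 of 7). It was 30 of 37 in Lsamp and 17 of 22 in Negr1. Ncam1, with 15 of 26 (57.7%, 38.9 to 74.5), and Cadm3, with 4 of 8, had the lowest shares. NOVA2 clusters with a NOVA1 overlap were the higher ones, with a median of 75.5 tags against 17.0 without, and the NOVA1 medians were 17.0 and 12.5. These intervals, and those below, cover counting error only.

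The 2 lists differed in where the clusters lay. Introns held 838 of the 879 NOVA2 clusters (95.3%, 93.7 to 96.5; 74.6% in the whole list) and 142 of the 209 NOVA1 clusters (67.9%, 61.3 to 73.9; 40.3% in the whole list). The intron share of the members was above that of the whole list for both proteins. The whole lists also hold clusters outside genes, whereas each member cluster touches a gene by the rule used. Shares by class, here and in the next paragraph, are therefore not like for like. The part of this, and of the long introns of the members, in the differences was not tested. The 3′ UTRs held 56 NOVA1 clusters (26.8%; 37.7% in the whole list) and 40 NOVA2 clusters (4.55%; 12.1% in the whole list). Coding sequence held 10 NOVA1 clusters (4.78%; 8.65% in the whole list) and 1 NOVA2 cluster (0.114%; 1.47% in the whole list). A 5′ UTR held 1 NOVA1 cluster (0.478%; 0.300% in the whole list). The share in coding sequence was thus below that of the whole list for both proteins.

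Class also separated the NOVA1 clusters with and without NOVA2. Of the 142 NOVA1 intron clusters, 140 overlapped a NOVA2 cluster (98.6%; 95.5% of such clusters in the whole list), and both exceptions lay in intron 1 of Negr1 with 10 and 11 tags. Of the 56 NOVA1 clusters in 3′ UTRs, 36 did (64.3%, 51.2 to 75.5; 73.9% of such clusters in the whole list), and of the 10 in coding sequence 1 did (38.1% in the whole list). Of the 32 unshared NOVA1 clusters, 2 lay in introns (6.25%, 1.73 to 20.1), near the 9.11% of the whole list. Among the 701 unshared NOVA2 clusters, 698 lay in introns (99.6%; 82.3% in the whole list) and 3 in 3′ UTRs (0.428%; 5.50% in the whole list).

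Ncam1 held most of the NOVA1 clusters in coding sequence. It had 7 of them, with 10, 10, 11, 15, 19, 26 and 52 tags, and 1 cluster of 10 tags in its 5′ UTR, and none overlapped a NOVA2 cluster. The highest (chr9:49313452-49313669) held 52 tags. The one with 26 tags (chr9:49315509-49315740) lay inside an exon of 801 nt that other Ncam1 transcripts skip, and it held 13 YCAY in 232 nt. Cadm3 had 2 in coding sequence, with 10 and 14 tags, and Negr1 had 1, with 13 tags. The only NOVA2 cluster of the members in coding sequence, with 27 tags, lay over the Cadm3 exon that carried the NOVA1 cluster of 14 tags.

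The 3′ UTRs carried the highest NOVA1 clusters. In the 3′ UTR of Opcml the lists had 384 NOVA1 and 597 NOVA2 tags at one position. That of Cadm2, with 12 clusters in each list, reached 269 and 338 tags, and that of Lsamp 240 and 317 tags at one position and 238 and 331 at another. All 9 NOVA1 member clusters of at least 100 tags (4.31%; 3.41% in the whole list) lay in 3′ UTRs, and none lay in an intron. In the whole NOVA1 list, 216 of the 341 such clusters lay in 3′ UTRs and 34 in introns. Ncam1 added 186, 156 and 115 tags in NOVA1 clusters of its 3′ UTR. The 3′ UTR clusters of Cadm1 (at most 33 NOVA1 tags), Ntm (50) and Cadm3 (25) were lower. For the highest Ncam1 cluster 1 further copy of the sequence was found in the genome, and its tags are uncertain for that reason. Ncam2 had no cluster in an annotated 3′ UTR, but 6 NOVA1 clusters of up to 44 tags and 4 NOVA2 clusters of up to 67 tags lay past its annotated 3′ end, at most 10 kb away.

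In introns the highest clusters were in the NOVA2 list. Of 74 NOVA2 member clusters with at least 100 tags (8.42%; 5.75% in the whole list), 67 lay in introns. In the whole NOVA2 list, 1409 of the 2103 such clusters did. The Ntm cluster in intron 3 (chr9:29309516-29309959), shown above, held 833 NOVA2 tags, while the 3 NOVA1 clusters under it held 16, 13 and 58. In Cadm2 the intron 1 cluster held 561 NOVA2 and 86 NOVA1 tags, and in Lsamp the intron 1 cluster held 355 and 30. The intron 2 cluster of Opcml held 354 and 30. The highest intron clusters of Negr1 (209 and 19 tags), Ncam1 (200 and 26), Cadm3 (197 and 37) and Ncam2 (156 and 61) held fewer NOVA2 tags, and so did the Cadm1 cluster (155 and 11) over the exon named below. The median member cluster held 20 NOVA2 tags (95% interval 19.0 to 22.0; 18.0 in the whole list) or 15.0 NOVA1 tags (14.0 to 18.0; 16 in the whole list).

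Tags of both proteins were then set side by side at the 157 member positions where 1 cluster of each list overlapped. In introns, NOVA1 had more tags than NOVA2 at 0 of 130 positions (70 of 3452 over all intron pairs in the lists). On the log2 scale, NOVA1 over NOVA2 tags had a median of -2.13 (95% interval -2.41 to -1.90), close to the -2.04 of all intron pairs in the lists. Opcml (-2.76, 19 positions) and Cadm1 (-2.97, 7) had the lowest gene medians in introns. The highest were those of Cadm3 (-1.67, 2 positions), Ncam2 (-1.71, 5) and Negr1 (-1.78, 14). Cadm3 and Ncam2 had too few positions for an interval. The intervals of Opcml (-3.52 to -2.10), Cadm1 (-3.82 to -1.68) and Negr1 (-2.57 to -1.30) overlapped, so these genes are not set apart. In 3′ UTRs the median was -0.27 (-0.48 to 0.21; -0.40 over all such pairs). NOVA1 had more tags there at 10 of 26 positions (691 of 2146 over all such pairs). The ratio was thus higher in the 3′ UTRs than in the introns of these genes. The tags are not scaled to depth, and the NOVA2 libraries were the deeper ones, so a ratio of 0 does not mark equal binding and the counts of positions with more NOVA1 tags refer to raw tags. Tag counts of both proteins rose together, with a Spearman correlation of 0.57 over the 130 intron positions and 0.81 over the 26 in 3′ UTRs, a description of positions that share genes and libraries.

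**Figure D2:**
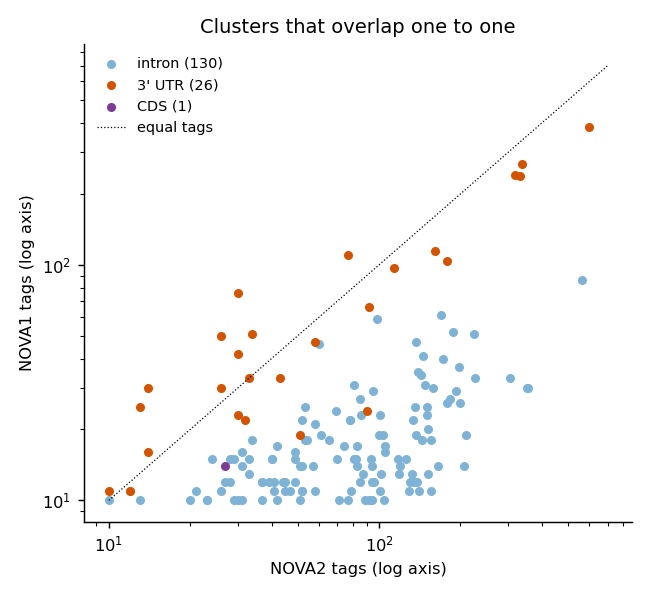
NOVA1 tags against NOVA2 tags, both on log axes, at the 157 positions of the 9 genes where 1 cluster of each list overlapped, coloured by class, with a dotted line at equal raw tags, not scaled to depth. Intron points lie on or under the line at 130 of 130 positions, and 3′ UTR points scatter around it, 10 of 26 above. Over all pairs in the lists, NOVA1 had more tags at 70 of 3452 intron and 691 of 2146 3′ UTR positions.

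The members hold 24 introns of at least 50 kb, which together span 4817 kb. NOVA2 clusters lay in 24 of the 24, where 56.8% of the 2907 such introns of protein-coding genes held one, and NOVA1 clusters in 21 of the 24, where 24.4% did. The 2907 include introns of silent genes, and the member introns were longer on average. The part of intron length in these shares was not tested. The 24 member introns took 780 of the 838 NOVA2 intron clusters (93.1%) and 131 of the 142 NOVA1 intron clusters (92.3%). NOVA2 clusters had a density there of 16.2 per 100 kb, against 4.46 over all long introns of other genes. For NOVA1 it was 2.72 against 0.708. Over member introns of any length the densities were 15.3 for NOVA2 and 2.59 for NOVA1, near those of the long ones. The shares of 93.1 and 92.3% thus largely follow the share of intron length. Long introns of other genes that held at least 1 cluster had 6.87 NOVA2 and 2.03 NOVA1 clusters per 100 kb.

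Intron 1 of Cadm2, of 666836 nt, held 143 NOVA2 and 31 NOVA1 clusters and ranked 2 by number in both lists. By density it ranked 71 and 69. Intron 1 of Lsamp, of 355383 nt, held 98 and 21 clusters and ranked 8 and 9 by number and 31 and 38 by density. Opcml spread its clusters over several introns, with 62 NOVA2 clusters in intron 3, 48 in intron 2 and 48 in intron 5, beside 4, 5 and 7 NOVA1 clusters. Intron 1 of Negr1 held 60 and 13, that of Ncam1 46 and 8, that of Ncam2 42 and 6, and that of Cadm1 29 and 4. Intron 1 of the 9 genes together held 427 NOVA2 and 85 NOVA1 clusters. Long introns with few clusters also occurred, such as intron 2 of Lsamp (66079 nt) with 1 NOVA2 and 0 NOVA1 clusters and intron 8 of Negr1 (113557 nt) with 3 and 0.

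**Figure D3:**
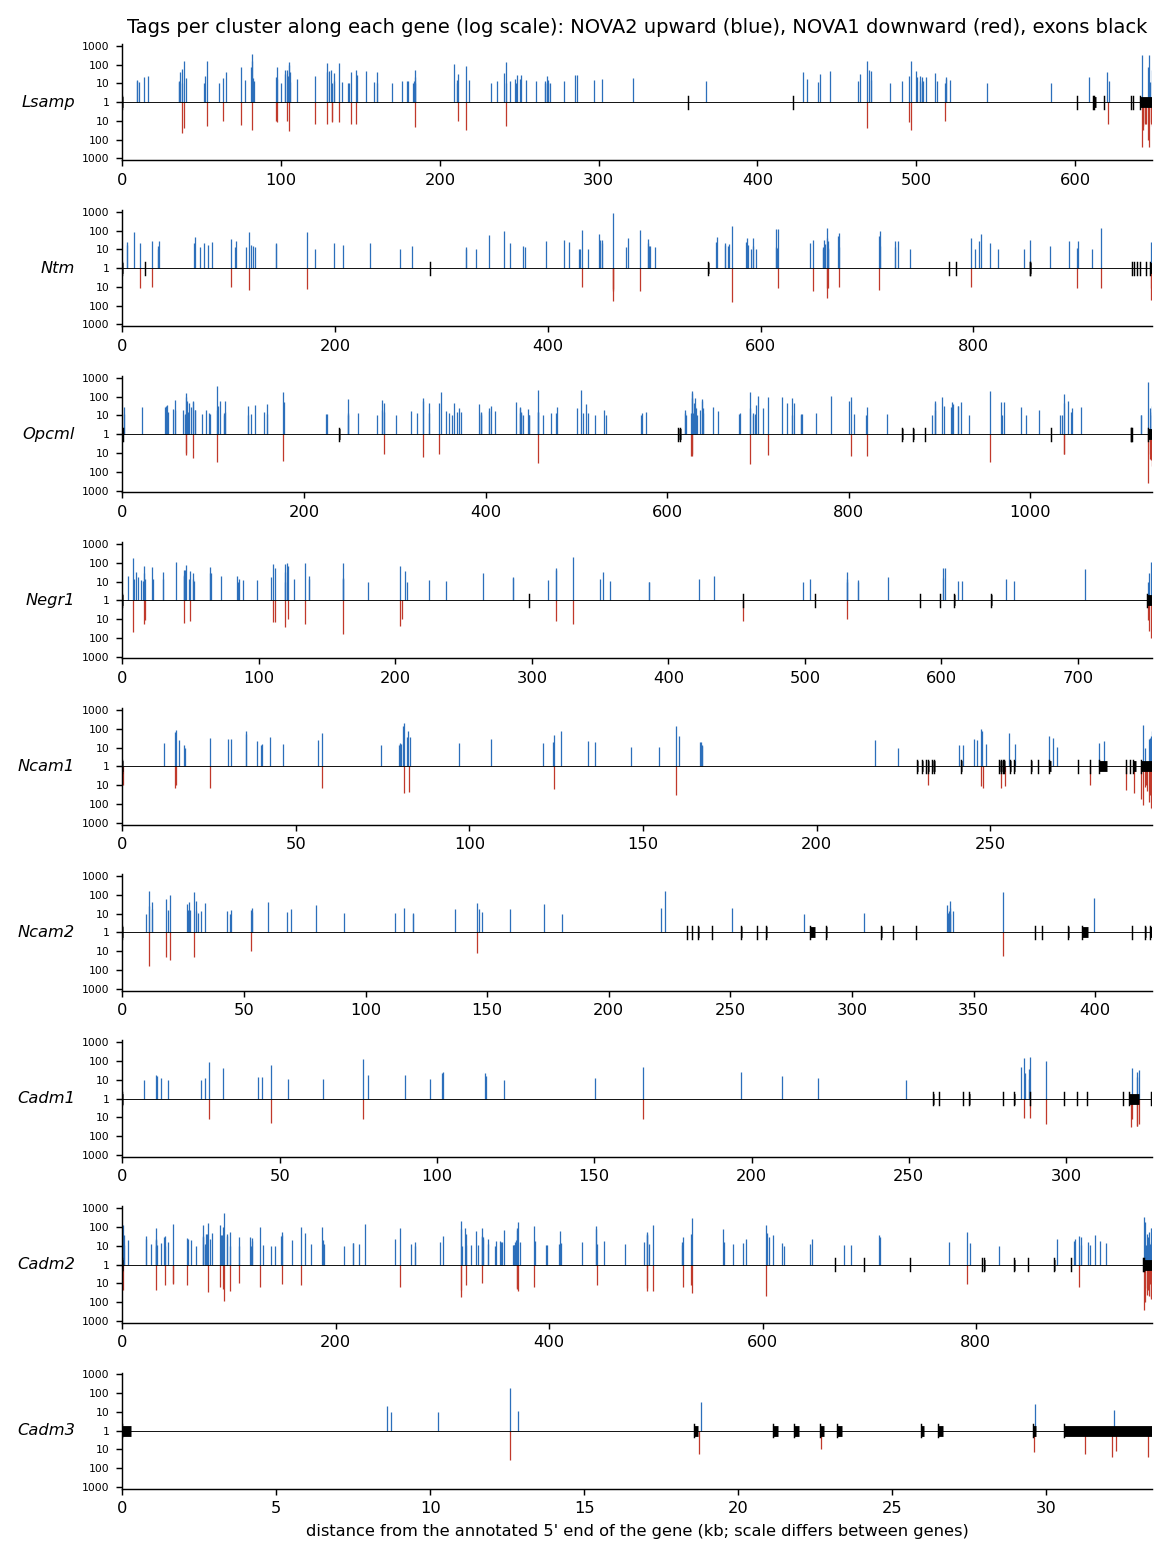
Clusters along each gene, placed by distance in kb from its annotated 5′ end (the scale differs between genes), with tags on a log scale, NOVA2 upward in blue, NOVA1 downward in red and exons in black. Most lines lie in the long introns toward the 5′ end, and the highest NOVA1 lines stand in the 3′ UTRs of Opcml, Cadm2 and Lsamp.

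Neighbouring NOVA2 clusters, taken as listed, lay close together in the long introns. The median distance between midpoints was 2048 nt (95% interval 1722 to 2606), with quartiles of 522 and 7118 nt, against 3016 nt (2858 to 3174) in long introns of other genes. Gaps below 1 kb made up 35.4% (32.1 to 38.9) against 31.2%. Some listed clusters adjoin each other, so a gap need not separate distinct sites. With clusters within 50 nt merged, the member median was 2849 nt, and no merged value is given here for other genes. Density was 16.2 NOVA2 clusters per 100 kb in the members and 6.87 in other long introns with a cluster. A higher density shortens gaps, and its part in these differences was not tested. Spacing was uneven within an intron, and in the 16 member introns with at least 10 clusters the median gap was 0.41 of the mean gap (range 0.19 to 1.14; 0.48 in 386 other introns). In intron 4 of Ntm, for example, 40 NOVA2 clusters had a median gap of 914 nt and a largest gap of 37.1 kb. Intron 1 of Cadm2 had a median of 1862 nt and a largest gap of 29.0 kb, and that of Lsamp 1188 nt and 24.3 kb. Intron 1 of Cadm1 had wider spacing, with a median of 5592 nt. For NOVA1 the median gap was 12374 nt (8017 to 17076) in the members and 10453 nt in other genes, and the intervals overlapped.

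**Figure D4:**
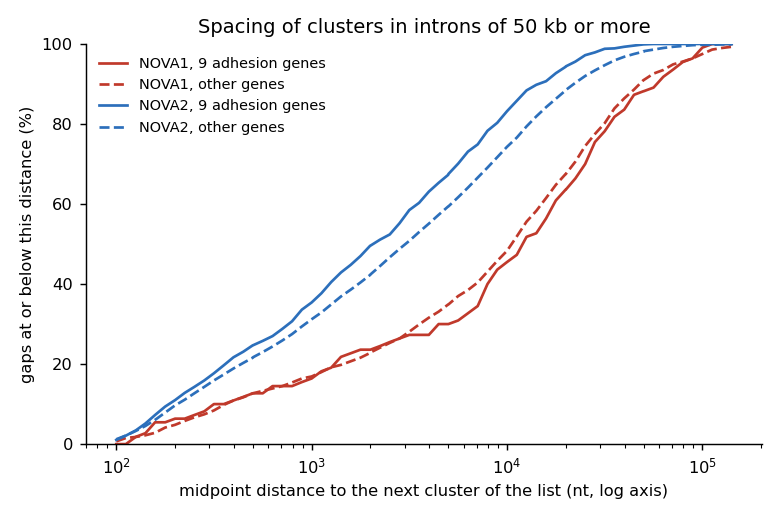
Cumulative share of gaps (%) between neighbouring clusters of one list in introns of at least 50 kb, by midpoint distance in nt on a log axis, for the 9 genes (solid) and other protein-coding genes (dashed). Clusters are as listed, without merging. The NOVA2 curve of the 9 genes lies above that of the others, with 83.2% against 74.3% of gaps at or below 10 kb, and the NOVA1 curves lie close together, with 45.5% and 48.3%.

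In each gene the 20 kb window with the most NOVA2 clusters was then taken. Such a window is a selected maximum and does not test for grouping. Opcml had 19 NOVA2 clusters within 20 kb of intron 5 (chr9:28218185-28238184), with 937 NOVA2 tags and 3 NOVA1 clusters. Cadm2 had 15 in intron 1 (chr16:67525793-67545792), with 1279 NOVA2 tags and 4 NOVA1 clusters, and this window holds part of its highest intron peak. Negr1 had 15 (chr3:156269758-156289757), and both Lsamp and Ncam2 had 14. The densest windows of Ntm, Ncam1, Cadm1 and Cadm3 held 12, 10, 7 and 6. The Cadm1 window was the one without a NOVA1 cluster.

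Along the long introns the clusters were least frequent at the 3′ end. Divided into 5 equal parts from 5′ to 3′, the introns held 29.6, 25.3, 23.6, 15.0 and 6.54% of the 780 NOVA2 clusters. The order was the same in other genes, with 28.2, 25.4, 21.9, 15.5 and 9.05%. The NOVA1 shares of the members were 30.5, 27.5, 22.9, 16 and 3.05%. At the 3′ end the NOVA2 share was lower in the members (5.01 to 8.5) than in other genes (8.57 to 9.54), and the intervals lay next to each other without overlap. The first part did not hold the largest share in each family, since in the IgLON genes it held 25.2% of NOVA2 and 22.5% of NOVA1 clusters and the next part 28.8 and 35.0%. Without intron 1 of Cadm2 the first and next parts held 28.4 and 27.9% of NOVA2 and 28.0 and 33.0% of NOVA1 clusters. At the 3′ end the NOVA2 share was 5.52% in the IgLON, 4.55% in the Ncam and 10.3% in the Cadm genes. Without intron 1 of Cadm2 that share was 5.81%.

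**Figure D5:**
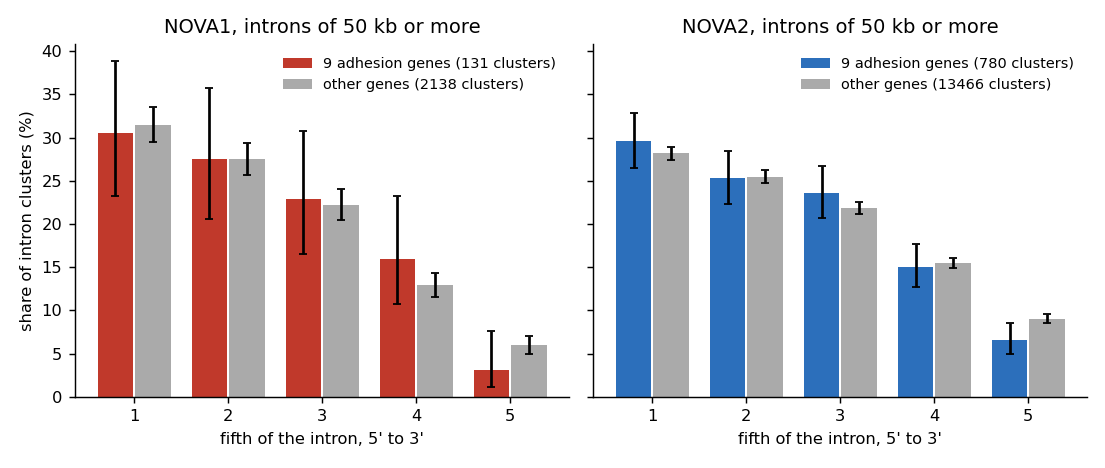
Share of clusters (%) in 5 equal parts of the introns of at least 50 kb, 5′ to 3′, for NOVA1 (left) and NOVA2 (right), in the 9 genes (coloured) and in other protein-coding genes (grey); error bars are Wilson 95% intervals. All 4 series are lowest at the 3′ end, with 3.05% and 6.54% in the last part for the 9 genes.

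Intron clusters of the members lay far from exons. Within 500 nt of an exon were 3 of 142 NOVA1 clusters (2.11%, 0.721 to 6.03; 12.7% in the whole list) and 15 of 838 NOVA2 clusters (1.79%, 1.09 to 2.93; 10.4% in the whole list). The median distance to the nearest exon was 64.4 kb for NOVA1 and 53.2 kb for NOVA2, against 11.3 and 9.71 kb in the whole lists. The members have long introns, and the part of intron length in these distances was not tested.

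The annotation gives 21 internal exons of the members that some transcripts skip. A cluster lay on or within 500 nt of 6 of them, 3 of 3 in Cadm3, 2 of 4 in Ncam1 and 1 of 3 in Cadm1, where 4.32% of the 21130 such exons of all protein-coding genes, silent ones included, had one. For Lsamp (3 exons), Ntm (3) and Cadm2 (5) no cluster lay there. Over the Cadm1 exon of 84 nt (chr9:47626817-47626900) a NOVA2 cluster of 155 tags covered all 84 nt, and the printed Cadm1 stretch lies inside that exon. NOVA2 clusters of 37 and 11 tags lay 165 and 400 nt upstream of it, and a NOVA1 cluster of 11 tags overlapped it by 25 nt. Over the Cadm3 exon of 126 nt lay the clusters of 14 NOVA1 and 27 NOVA2 tags named above, and 19 nt downstream of the Cadm3 exon of 102 nt (chr1:175279153-175279254) both lists had a cluster, with 18 NOVA1 and 34 NOVA2 tags. This last position is shown because it is the member site closest to a skipped exon without overlapping it, and its 60 nt richest in YCAY, again in capitals, held 10.
Cadm3, downstream of the exon of 102 nt (chr1:175279049-175279108, minus strand): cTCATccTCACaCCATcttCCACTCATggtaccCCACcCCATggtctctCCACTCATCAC
In Ncam1 a NOVA2 cluster of 15 tags covered an exon of 15 nt. Splicing of these exons was not measured in the lists.

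YCAY was frequent in the member clusters of both lists. At least 1 YCAY was present in 208 of 209 NOVA1 clusters (99.5%; 98.1% in the whole list) and in 877 of 879 NOVA2 clusters (99.8%; 99.3% in the whole list). The clusters held 39.3 YCAY per 1000 start positions for NOVA1 and 39.6 for NOVA2, against 17.9 and 18.7 in flanks 200 to 500 nt away. The fold over flanks was 2.20 (95% interval 2.05 to 2.36) for NOVA1 and 2.11 (2.04 to 2.19) for NOVA2, and in the whole lists it was 2.02 and 2.29. In introns the fold was 2.79 (2.57 to 3.02) for NOVA1, where the whole list had 2.81, and 2.15 (2.08 to 2.23) for NOVA2, where it had 2.41. In 3′ UTRs it was 1.48 and 1.61. NOVA1 intron clusters were thus richer in YCAY than NOVA2 intron clusters, and the NOVA2 intron clusters of the members less so than those of the list as a whole. Since 140 of the 142 NOVA1 intron clusters overlapped a NOVA2 cluster, the proteins largely shared these sites. The part of depth and cluster width in the difference between the lists was not tested. For NOVA2, clusters with and without a NOVA1 overlap had folds of 2.22 and 2.09, and the intervals overlapped. For NOVA1 they were 2.35 and 1.51, and the unshared ones were mostly exonic. Cadm3 had the highest fold among the members for both proteins (3.43 and 4.01, from 8 clusters each), and Ncam1 the lowest (1.55 and 1.89).

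Related genes and partners were counted the same way. Of 11 further adhesion genes of these families and their relatives, 9 held a NOVA1 cluster and 7 a NOVA2 cluster, 55 and 145 in all. Over all 22380 protein-coding genes, silent ones included, 12.7% held a NOVA1 cluster and 22.7% a NOVA2 cluster. Chl1, a relative of L1cam, held 19 and 57, a NOVA2 density of 23.9 per 100 kb, and Nrcam held 12 and 36. The short family members Iglon5 (1 and 0) and Cadm4 (1 and 2) held few, and Pvrl2 and Pvrl4 held none. Of 8 partners, 7 held a NOVA1 cluster and 7 a NOVA2 cluster, and 6 held both. St8sia2, which adds polysialic acid to NCAM, held 5 and 8, with up to 195 NOVA1 and 308 NOVA2 tags. Cask, a scaffold that binds CADM proteins, held 4 and 33, and Fyn, a kinase that acts downstream of NCAM, held 4 and 9.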

How the data were processed

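The deposited lists give, for each cluster, a position, a strand and a count of tags, which the authors pooled over the 3 libraries of a protein and did not scale to depth. According to the labels and methods, reads were aligned to mm9 (Novoalign, per the submitters' processing notes), collapsed to unique tags and grouped into clusters with tags in at least 2 libraries. The lists hold clusters of at least 10 tags. The study calls the measure behind this minimum peak height, and whether the deposited count is all tags of a cluster or its maximum depth is not given in the sources used here. Summed counts were 304703 for NOVA1 and 1309270 for NOVA2. These sums are not library depths. The study gives unique tag totals per library, which were higher for NOVA2, and the alternative with a higher NOVA2 threshold was set by them. Values cover all retained clusters, and weaker sites were not analysed here.

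Spans, exons and introns came from GENCODE vM1 on NCBIM37 (mm9). Each cluster took the class covering most of its nucleotides, in the order coding sequence, 3′ UTR, 5′ UTR, noncoding exon and intron. Introns were the gaps between merged exons of a gene, numbered from the 5′ end. YCAY was counted on the cluster strand. Shares carry Wilson intervals, medians exact binomial intervals and folds exact conditional intervals, at 95%. Clusters are not replicates, so no p-value was computed. Named were the highest cluster per gene and list, each exonic cluster, clusters near skipped exons, and the introns and windows of 20 kb with the most clusters, of which the text gives the main ones. Alternatives were higher tag thresholds, a reduced NOVA2 list, merged clusters and other distances. The members and lists were chosen with earlier results of these data known. Python 3.11.15, SciPy 1.17.1, pysam 0.24.0, samtools 1.23.1 and BLAST+ 2.17.0 were used, and 7 of 7 checks on simulated data recovered the planted value. RNA-seq of knockout mice was not used here.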

Additional observations from a re-analysis of the deposited data

How the results depend on the processing

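No paired analysis was possible because each list holds 1 pooled count per cluster, and for the same reason no library could be left out. Of 67 alternatives over 17 results, 39 left the value within its interval or, for counts, near it, and 28 moved it. Each alternative was judged against the value itself and not against its comparison with the whole lists. With 20 or more tags in both lists, the members held 75 NOVA1 and 452 NOVA2 clusters, the NOVA1 intron share was 54.7%, the intron densities were 0.748 and 7.73 per 100 kb, the median gaps were 39287 and 4382 nt, the NOVA2 overlap was 15.0% and the median log2 ratio was -1.53. With 25 or more NOVA2 tags, there were 374 NOVA2 clusters, the overlap was 76.6% of NOVA1 and 42.0% of NOVA2 clusters, the NOVA2 intron share was 92.8%, the density 6.33 per 100 kb and the median gap 5567 nt. With the NOVA2 list shortened to as many clusters as that of NOVA1, these values were 289, 67.9%, 48.1%, 93.1%, 4.91 and 6000 nt. The whole NOVA2 list had an overlap of 18.3% at 20 or more tags in both lists. At 25 or more NOVA2 tags the whole lists had 60.8% of NOVA1 and 44.4% of NOVA2 clusters. With the shortened list they had 54.6% and 52.0%. Under these 2 NOVA2 settings the NOVA1 share of the members was above that of the whole list. Merging clusters within 50 nt gave a NOVA2 gap of 2849 nt. A distance of 200 nt to an exon gave a NOVA2 share of 0.955%. Within 50 nt of the midpoint, YCAY per 1000 positions was 47.0 for NOVA1 and 42.7 for NOVA2. Flanks 1000 to 2000 nt away gave a NOVA2 fold of 2.20. Intron clusters alone gave a NOVA1 fold of 2.79 and a log2 ratio of -2.13. Fewer clusters at a higher threshold widen the gaps by construction, and the cause of the other changes was not tested. The overlap of both lists, the densities and the gaps therefore depend on the threshold, and the part of depth was not tested. Annotated 3′ ends also limit the counts, since clusters just past them are not included.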
